A study of Mus musculus with 2 samples.

Results

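The cells described here are tumour monocytes with almost no complement C1q RNA, 150 of the 17473 cell barcodes in droplet single-cell RNA data of mouse liver tumours. There were 74 in the library labelled shCtrl (genotype label WT) and 76 in the library labelled shSrsf10, made from tumours with a short hairpin RNA against the splicing factor Srsf10. Each group is 1 library, and the labels state neither the age, strain or number of mice nor how the tumours were started. They do not say which cells carried the hairpin, and the gate of the flow cytometry sort is not stated. The series title places the question in tumour immunity. With 1 library a group no difference could be checked against replicates, so no test was made, and every interval below is at 95% and covers counting error only.

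The cells were chosen by measured values. A barcode needed at least 200 genes, at most 20% mitochondrial UMIs (unique molecular identifiers, counted transcripts) and little keratin RNA, with Krt8 and Krt18 at 1 UMI or less or under 0.1% of UMIs. It needed at least 3 UMIs of Lyz2 (lysozyme), at least 1 UMI of Ccr2, Csf1r or Ms4a6c, and at most 1 UMI of the 3 C1q chains. S100a8 and S100a9, the calprotectin genes of neutrophils, had to stay under 1% of UMIs, the granule protease genes Elane, Mpo, Prtn3 and Ctsg at 1 UMI or less, and the Cd3 chains of T cells at 0. Levels of these genes are therefore a description of the choice and not a finding. The C1q limit alone turned away 140 shCtrl and 65 shSrsf10 barcodes that passed every other step, more than any other limit in either library.

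Monocytes leave the bone marrow for the blood and enter tumours, where many turn into macrophages. In mice, classical monocytes carry much Ly6c2 on their surface and depend on the receptor Ccr2 to leave the marrow, while non-classical monocytes have little Ly6c2, patrol the vessel wall and depend on the nuclear receptor Nr4a1. C1q is switched on as monocytes become tissue macrophages. Interferon gamma from T and NK cells and type I interferons act on monocytes through STAT proteins and interferon regulatory factors and induce chemokines, antigen presentation and antiviral genes.

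The marker genes fitted the label. Plac8, a monocyte gene that the choosing rule did not use, stood at 5385 CPM in shCtrl and 8151 CPM in shSrsf10 monocytes (CPM, UMIs of the gene in 1000000 UMIs summed over the cells). It was found in 72 of 74 and 75 of 76 cells. In macrophages with at least 3 UMIs of C1q it was at 450 and 1545 CPM. Plac8 is not restricted to monocytes, and in T cells it was at 341 and 1118 CPM. Of the markers used by the rule, Lyz2 was at 8792 and 13215 CPM against 2945 and 3933 CPM in the C1q macrophages. Ms4a6c was at 733 and 1476 CPM against 314 and 529 CPM. Csf1r, the receptor for colony stimulating factor 1, was at 319 and 266 CPM, below its 488 and 344 CPM in the C1q macrophages.

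**Figure D1:**
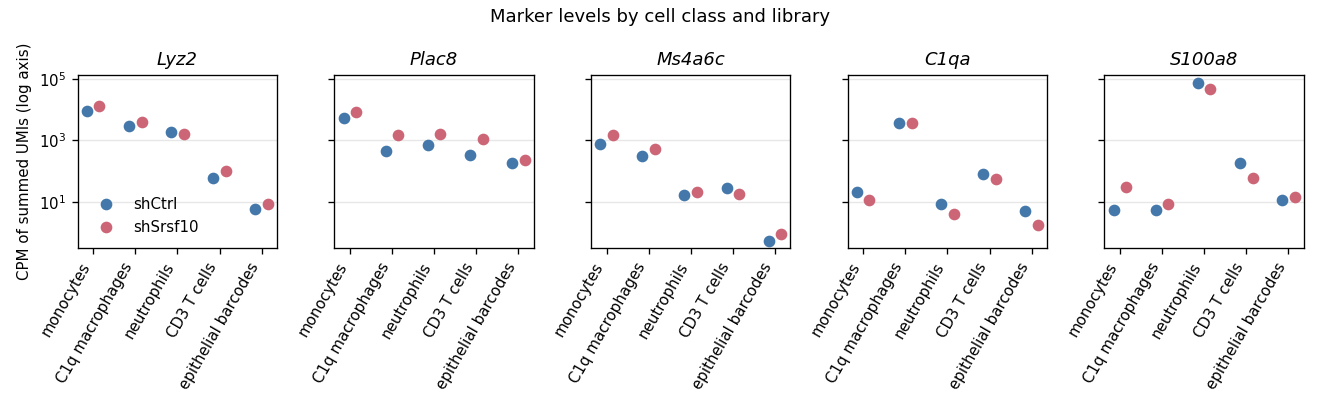
CPM on a log axis of 5 marker genes in the monocytes, the C1q macrophages, the neutrophils, the T cells and the epithelial barcodes, with 1 point for each library (shCtrl blue, shSrsf10 red). In both libraries Lyz2, Plac8 and Ms4a6c were highest in the monocytes, C1qa in the C1q macrophages and S100a8 in the neutrophils.

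Genes of most other cell types left few UMIs, with hepatocyte, macrophage and tumour epithelium genes the most widely found. Over 10 T and NK cell markers the monocytes held 2 UMIs in shCtrl and 3 in shSrsf10, with Nkg7, Trbc1, Cd4 and Cd8a at 0 in both. The 6 Kupffer cell markers gave 1 and 2 UMIs, with Clec4f, Vsig4, Timd4 and Marco at 0, and the 5 mast cell and basophil markers gave 0. The 6 endothelial markers gave 2 and 2 UMIs, the 5 B cell markers 13 and 32, and the 6 plasmacytoid dendritic cell markers 26 and 17, with Siglech at 0. The 8 tumour epithelium markers gave 69 and 35 UMIs, 0.0361% and 0.0133% of all UMIs, in 39 and 25 cells. The 9 neutrophil markers gave 39 and 51 UMIs, 0.0204% and 0.0193% of all UMIs, with Ly6g at 0 in both libraries. Markers of conventional and migratory dendritic cells were at 0 in 58 of 74 shCtrl and 55 of 76 shSrsf10 cells. The 8 tumour macrophage markers, 3 of them C1q chains limited by the rule, gave 67 and 87 UMIs in 40 and 49 cells, with Folr2 at 0 in both. Genes secreted by hepatocytes gave 365 and 344 UMIs, 0.191% and 0.131% of all UMIs, in 70 of 74 and 64 of 76 cells.

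The 2 libraries differed in depth. The median monocyte held 2244 UMIs and 964.5 genes in shCtrl and 3252 UMIs and 1172 genes in shSrsf10, with ranges of 753 to 15719 and 788 to 12684 UMIs. Their summed UMIs came to 191093 and 263638. Scrublet doublet scores, taken at 0.8% per 1000 barcodes, marked 1 shCtrl and 0 shSrsf10 monocytes. Of 67 barcodes found in both libraries 2 belonged to monocytes, and no barcode was a monocyte in both.

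Some limits of the rule passed close to many cells. Exactly 1 UMI of Ccr2, Csf1r and Ms4a6c together was found in 23 shCtrl and 5 shSrsf10 monocytes, and allowing no Krt8 or Krt18 UMI at all would have left 41 and 56 monocytes. The 10 shCtrl and 6 shSrsf10 monocytes with exactly 1 C1q UMI had Plac8 at 5543 and 7430 CPM, close to the level of all monocytes. Only 2 shCtrl and 0 shSrsf10 barcodes failed by having 2 C1q UMIs. At 3 Lyz2 UMIs there were 5 and 1 monocytes and at 2 UMIs 1 and 3 barcodes just outside. Leaving out the need for Ccr2, Csf1r or Ms4a6c would have added 25 shCtrl and 5 shSrsf10 barcodes. In shSrsf10, 12 monocytes had 1 granule protease UMI and 1 barcode fell just outside with 2.

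How common the monocytes were depended on what they were counted against. They made up 0.776% (0.609 to 0.973) of 9542 kept shCtrl barcodes and 1.02% (0.801 to 1.27) of 7486 kept shSrsf10 barcodes. Of the barcodes within the keratin limit they made up 3.45% (2.72 to 4.32) in shCtrl and 2.50% (1.98 to 3.12) in shSrsf10. The second denominator held 333 T cells in shCtrl and 1860 in shSrsf10. Among monocytes, C1q macrophages and neutrophils together, monocytes were 19.7% (15.8 to 24.1) and 17.9% (14.4 to 21.9). The intervals of the 2 libraries overlapped for all 3 shares. Among barcodes with at least 1000 UMIs and 500 genes they did not for the second share, at 5.19% (4.06 to 6.52) and 3.22% (2.54 to 4.02). With Krt8 and Krt18 at 0 the first was 0.430% (0.309 to 0.582) and 0.748% (0.566 to 0.970). The unstated sort gate can set any of them.

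Across the 2476 genes with at least 20 UMIs over both sets of monocytes, 217 (8.76%) were at least 2-fold higher in shSrsf10 and 172 (6.95%) at least 2-fold lower, with a median log2 ratio of 0.066 (shSrsf10 over shCtrl). These shares are the background for the lists that follow. Of 7 classical monocyte genes tested, 3 were at least 2-fold higher and 0 lower, with a list median of 0.86. The same list had medians of 1.30 in C1q macrophages, 0.31 in neutrophils, 1.34 in T cells and 0.46 in epithelial barcodes. Those medians rest on 5, 8, 6 and 9 tested genes, so the rise was not particular to the monocytes. Ly6c2, the surface protein that defines classical monocytes, had 207 UMIs in 46 shCtrl cells and 682 UMIs in 61 shSrsf10 cells, or 1083 and 2587 CPM. Its log2 ratio was 1.26 (1.03 to 1.49), and the CPM intervals of the libraries did not overlap. It lost the 2-fold mark, at 0.64, in the 41 and 56 monocytes without any Krt8 or Krt18 UMI, and at 0.97 as a mean over cells. Its reads may be shared with the near-identical Ly6c1. Outside the monocytes Ly6c2 was also higher in shSrsf10 in T cells, at 101 and 1248 CPM, in C1q macrophages, at 20.1 and 213 CPM, and in epithelial barcodes, at 1.13 and 10.4 CPM. In neutrophils it was at 312 and 274 CPM, a log2 ratio of -0.19 (-0.78 to 0.43). What free RNA adds to the monocyte value was not tested.

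Chil3, a chitinase-like protein of classical monocytes and some macrophages, was at 319 CPM in shCtrl and 1225 CPM in shSrsf10, a log2 ratio of 1.94 (1.54 to 2.36). After thinning each cell to 1000 UMIs, 15 of 69 shCtrl and 34 of 75 shSrsf10 monocytes held a Chil3 UMI, 21.7% (12.7 to 33.3) and 45.3% (33.8 to 57.3). Without thinning the shares were 28.4% and 57.9%. In T cells, which should lack it and had median depths of 2034 and 2495 UMIs, 0 of 293 and 1 of 1789 did. A count of 0, taken as up to 3 cells, allows a share of T cells with a Chil3 UMI of up to 1.02%. In neutrophils Chil3 went the other way, at 1165 and 266 CPM. Hp (haptoglobin), also made by hepatocytes, was at 398 and 945 CPM in the monocytes, a log2 ratio of 1.25 (0.87 to 1.64), and at 722 and 1263 CPM in neutrophils. Without the cells that held a dendritic cell marker its ratio was 0.88. Hp was also higher in shSrsf10 in C1q macrophages, at 32.9 and 81.2 CPM. The same held in T cells, at 4.61 and 11.8 CPM, and in epithelial barcodes, at 52.6 and 102 CPM.

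Of 9 non-classical genes tested, 0 were at least 2-fold higher and 1 lower, a share near the background, with a median of -0.40, and 1 of the 9 lay above 0. Adgre4, an adhesion receptor, was the 1 past 2-fold, with 12 and 8 UMIs and a ratio of -1.05 (-2.55 to 0.36), and it was inside 2-fold under 4 of the other settings tried, at -0.59 with Lyz2 at 5 or more. Ace (angiotensin-converting enzyme) was at 136 and 72.1 CPM, a ratio of -0.92 (-1.85 to -0.0075). Pou2f2, a transcription factor gene, was at 168 and 91.0 CPM, with -0.88 (-1.71 to -0.070). Nr4a1, which non-classical monocytes need, was at 319 and 254 CPM with an interval that includes 0 (-0.85 to 0.20). Cx3cr1, the fractalkine receptor that marks these cells, had 3 and 2 UMIs and could not be compared at this depth.

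The lists were also compared cell by cell. With every cell thinned to 1000 UMIs, 29 of 69 shCtrl monocytes had more classical than non-classical UMIs, 42.0% (30.2 to 54.5). In shSrsf10 this held for 49 of 75, 65.3% (53.5 to 76.0), and the intervals overlapped by a small margin. Within the split, which these lists define, the classical median was 0.21 on the classical side, and the non-classical median was 0.20 among the other cells, with 6 of 7 genes above 0. Cells with more non-classical UMIs numbered 25 and 16, ties 11 and 6, and cells with neither list 4 and 4. The split is a cut on a score and not a pair of cell types, since 28 shCtrl and 18 shSrsf10 cells lay within 1 UMI of equal. With a margin of at least 2 UMIs the classical shares were 34.8% (23.7 to 47.2) and 58.7% (46.7 to 69.9). Without the cells that held a dendritic cell marker the shares came closer, at 53.7% of 54 shCtrl and 70.4% of 54 shSrsf10 cells, while at 2000 UMIs per cell they were 42.9% of 49 and 82.9% of 70. Each is a single draw of UMIs, and 5 shCtrl and 1 shSrsf10 monocytes under 1000 UMIs were left out.

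**Figure D2:**
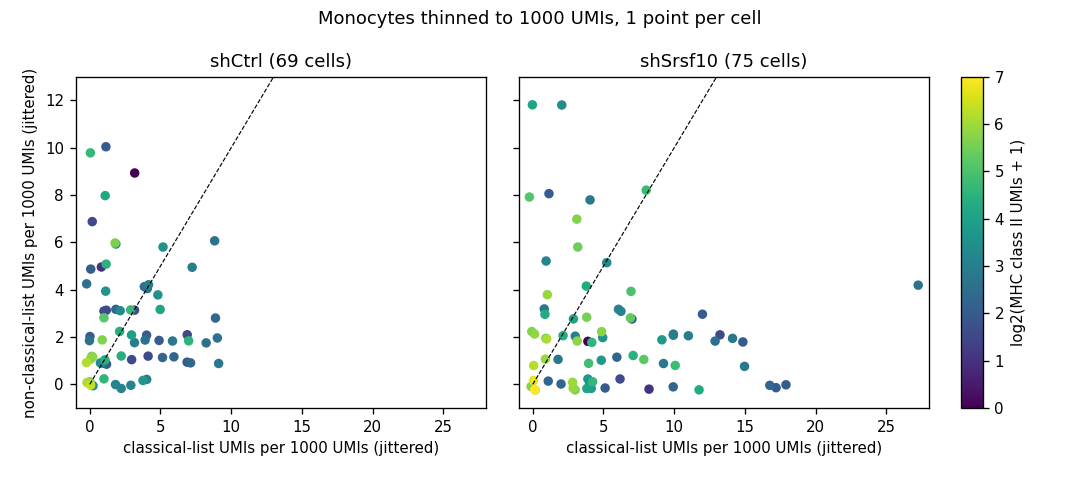
Each point is 1 monocyte thinned to 1000 UMIs, with its UMIs of the classical list on the x axis and of the non-classical list on the y axis (small random shifts separate points), coloured by log2 of MHC class II UMIs plus 1. The dashed line marks equal sums. Below it lie 29 of 69 shCtrl and 49 of 75 shSrsf10 cells.

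Interferon-induced genes were higher in shSrsf10 monocytes. Of 15 interferon gamma-induced genes tested, 11 were at least 2-fold higher and 0 lower, with 15 of 15 above 0 and a median log2 ratio of 1.37. Of 26 type I interferon-induced genes, 15 were at least 2-fold higher and 1 (Stat2) lower, with 22 above 0 and a median of 1.12. After thinning, 44 of 69 shCtrl and 69 of 75 shSrsf10 monocytes held a UMI of the interferon gamma list, 63.8% (51.3 to 75.01) and 92.0% (83.4 to 97.0), and the medians were 1 and 3 UMIs per cell. No class lacked these genes: 51.5% and 59.8% of T cells and 16.3% and 45.8% of epithelial barcodes also held one, at median depths of 2034 and 2495 and of 16329 and 25318 UMIs before thinning. For the type I list nearly every monocyte of both libraries had a UMI, 69 of 69 and 74 of 75, with medians of 7 and 10.

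Gbp2, a guanylate-binding protein that attacks the vacuoles of intracellular microbes, was found in 19 shCtrl and 45 shSrsf10 cells, at 157 and 493 CPM, a log2 ratio of 1.65 (1.07 to 2.28). Guanylate-binding proteins have near-identical copies, so reads may be split among them. Irf1, a transcription factor induced early by interferon gamma, was at 141 and 296 CPM, with 1.07 (0.42 to 1.76). Iigp1, an immunity-related GTPase, had 2 and 24 UMIs, so its ratio of 3.12 (1.11 to 6.25) is loosely bounded. Socs3, an inhibitor of cytokine signalling, was at 115 and 254 CPM, a ratio of 1.14 (0.43 to 1.91), while the related Socs1 was at 73.3 and 75.9 CPM. Without the cells that held a dendritic cell marker Socs3 was at 0.73, inside 2-fold.

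Among type I interferon genes Isg15, a ubiquitin-like protein joined to other proteins during viral infection, was found in 25 and 54 cells, at 351 and 922 CPM, a log2 ratio of 1.39 (1.00 to 1.81). Irf7, the factor that amplifies interferon production, was at 162 and 406 CPM, with 1.32 (0.73 to 1.95). Zbp1, a sensor of unusual nucleic acids, was at 246 and 573 CPM, with 1.22 (0.74 to 1.72). The groups' CPM intervals did not overlap for any of these 3. Ifit3 had 2 and 23 UMIs and a ratio of 3.06 (1.04 to 6.19). Ifit1 had 0 and 22 UMIs, at least 5.32-fold higher against a floor of 3 counts over the shCtrl monocytes, but 90.9% of its UMIs lay in 1 cell. Not all members were higher. Ifi27l2a was at 3166 and 3122 CPM, a ratio of -0.020 (-0.17 to 0.13). Stat2, a transcription factor of the type I interferon signal, was at 78.5 and 30.3 CPM, with -1.37 (-2.82 to -0.042).

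The receptors, kinases and factors of interferon signalling formed a further list. It shares members such as Stat2 with the lists above, so its count is not separate from theirs. Of the 16 interferon signalling genes tested 4 were at least 2-fold higher, Irf1, Irf7 and Socs3 among them, and 1 lower (Stat2), with a median of 0.23 that was 0.90 in cells with keratins at 0. Ifngr1, a chain of the interferon gamma receptor, was at 183 and 228 CPM (-0.31 to 0.96 on the log2 scale). Ifnar2, of the type I receptor, was at 188 and 190 CPM, and Jak1, the kinase used by both, at 110 and 72.1 CPM (-1.58 to 0.36). All 3 intervals include 0.

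The promoters of these genes were searched for GAAANNGAAA on either strand, read as TTTCNNTTTC on the other strand, letters of the interferon-stimulated response element that interferon regulatory factors bind. The windows run from 250 bases before to 50 after each gene's start in the RefSeq table on GRCm38.p6. These letters were in 6 of 13 interferon gamma and 11 of 21 type I interferon genes with an entry, 46.2% and 52.4%. They were in 5.89% of the 1987 tested genes with an entry, 3.44% of all 32851 windows and 0 of 18 respiratory chain genes. These shares count every tested member of lists of known interferon-induced genes, whatever its ratio. They describe the lists and say nothing about a difference between the libraries. At least 2-fold higher in shSrsf10 were 11 of 15 tested interferon gamma and 15 of 26 tested type I genes, and 10 of these held the letters. Other interferon genes with the letters were not 2-fold higher, Socs1 and Stat2 among them. Whether the letters went with the rise was not tested. The 4 higher genes with the letters and the most UMIs are shown, read 5′ to 3′ on the gene's strand with the matching letters in capitals. The windows are chr5:92348840-92349139 for Cxcl10 (minus strand), chr4:156200769-156201068 for Isg15 (minus), chr3:142620413-142620712 for Gbp2 (plus) and chr1:174031706-174032005 for Ifi205 (minus).
Cxcl10: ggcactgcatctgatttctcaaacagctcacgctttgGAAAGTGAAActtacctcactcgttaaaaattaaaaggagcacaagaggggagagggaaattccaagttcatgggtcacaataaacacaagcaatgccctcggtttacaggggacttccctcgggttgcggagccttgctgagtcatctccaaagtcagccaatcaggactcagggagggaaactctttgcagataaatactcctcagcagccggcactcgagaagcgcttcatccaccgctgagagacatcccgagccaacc
Isg15: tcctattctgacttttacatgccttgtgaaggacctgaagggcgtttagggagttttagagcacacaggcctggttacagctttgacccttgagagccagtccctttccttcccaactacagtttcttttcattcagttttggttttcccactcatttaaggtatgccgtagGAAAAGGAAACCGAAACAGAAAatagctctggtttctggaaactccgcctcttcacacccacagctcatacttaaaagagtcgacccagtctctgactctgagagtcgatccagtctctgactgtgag
Gbp2: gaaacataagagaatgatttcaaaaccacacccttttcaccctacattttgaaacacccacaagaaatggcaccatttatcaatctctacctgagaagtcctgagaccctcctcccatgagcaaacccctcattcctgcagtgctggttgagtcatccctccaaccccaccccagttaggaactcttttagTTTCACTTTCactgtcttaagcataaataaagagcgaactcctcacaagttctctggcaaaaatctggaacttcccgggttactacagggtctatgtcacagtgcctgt
Ifi205: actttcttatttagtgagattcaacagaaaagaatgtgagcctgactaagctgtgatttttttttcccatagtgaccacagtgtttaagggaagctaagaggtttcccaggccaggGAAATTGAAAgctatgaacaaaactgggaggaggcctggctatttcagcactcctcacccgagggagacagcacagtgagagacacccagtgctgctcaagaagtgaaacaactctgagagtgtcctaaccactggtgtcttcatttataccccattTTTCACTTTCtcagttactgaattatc
The first match began 213 bases before the start in Cxcl10, 78 in Isg15, 59 in Gbp2 and 134 in Ifi205. Isg15 held 3 overlapping matches in 1 run and Ifi205 a second match after its start. A match is a run of letters and not a measured binding site. Cxcl9 and Irf7 were not among the listed genes with a match, and not every listed gene had an entry.

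Several chemokines were higher in shSrsf10 monocytes. Of 11 tested on the chemokine list, 9 were at least 2-fold higher in shSrsf10 and 1 lower, with a median log2 ratio of 1.65. Ccl24, a chemokine outside that list, was lower as well. The list median was 1.00 in cells with C1q at 0, below the 1.22 of interferon gamma genes there. It was 1.24 without the cells that held a dendritic cell marker. The ligands of Cxcr3, which draw activated T and NK cells, were among the chemokines that were higher. Cxcl9 was found in 9 shCtrl and 19 shSrsf10 cells, at 147 and 501 CPM, a ratio of 1.77 (1.18 to 2.42). At 1000 UMIs per cell 4 of 69 and 15 of 75 monocytes held a Cxcl9 UMI, against 1 of 293 and 16 of 1789 T cells. More C1q macrophages did, 49 of 150 and 34 of 69, with Cxcl9 at 848 and 1486 CPM. Cxcl9 was also higher in shSrsf10 in T cells, at 6.46 and 29.3 CPM, and in epithelial barcodes, at 3.37 and 20.8 CPM. Cxcl10 was found in 9 and 31 cells, at 351 and 1096 CPM, with 1.65 (1.26 to 2.05), while 49.3% and 33.6% of its UMIs lay in 1 cell of each library. For both genes the CPM intervals of the libraries did not overlap.

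Ccl2, a ligand of Ccr2 that draws further monocytes, was found in 7 and 22 cells, at 105 and 288 CPM, a ratio of 1.46 (0.74 to 2.25). Cxcl2, which draws neutrophils, was at 73.3 and 235 CPM, with 1.68 (0.83 to 2.63). Ccl6 and Ccl9, CC chemokines of mouse myeloid cells, were more widely found, in 50 and 60 and in 21 and 36 cells, with ratios of 0.91 (0.62 to 1.20) and 1.04 (0.37 to 1.76). Ccl5, a T cell and NK cell chemokine, had 0 and 45 UMIs, the latter in 10 cells, at least 10.9-fold higher against the floor of 3 counts. It was also higher in barcodes of epithelial cells, at 7.05 and 95.2 CPM, and in T cells, at 3687 and 11875 CPM. What T cell RNA adds to it in monocytes was not tested.

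A few cells set some of these values. Ccl4 was 4.04-fold higher, with 47.4% of its shSrsf10 UMIs in 1 cell, and its log2 ratio of 2.01 was 0.83 in cells with C1q at 0 and 0.32 in cells with keratins at 0. Pf4, platelet factor 4, was the 1 chemokine of the list that was lower, with 76 UMIs of which 96.1% lay in 1 shCtrl cell. Its sign turned without that cell. A single shSrsf10 monocyte with 7684 UMIs held 57 of 57 Col1a1, 108 of 109 Sparc, 25 of 26 Cxcl1 and 35 of 37 Fabp4 UMIs. Col1a1 and Sparc are matrix genes of fibroblasts. Without that cell the counts of genes at least 2-fold higher and lower were 211 and 179, and the chemokine median was 1.51. Ccl24, a chemokine for eosinophils that is not on the list, lay in 6 cells of each library at 775 and 118 CPM. Its log2 ratio was -2.72 (-3.33 to -2.15). In C1q macrophages Ccl24 was at 2961 and 3362 CPM.

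**Figure D3:**
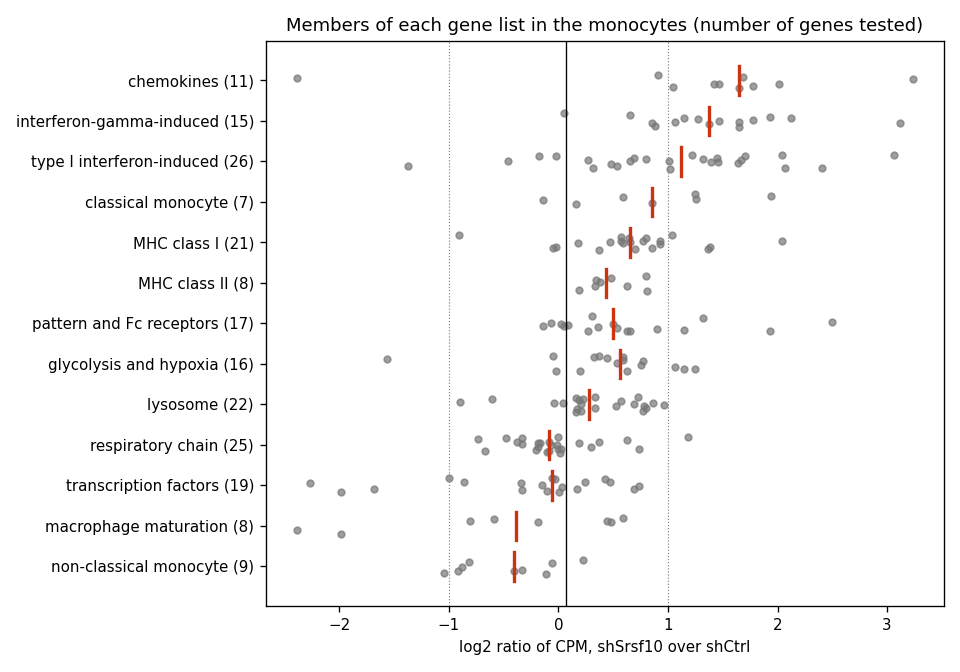
Log2 ratio of CPM (shSrsf10 over shCtrl) on the x axis for each tested member of 13 gene lists in the monocytes, with 1 grey point per gene, the list median as a red bar, the median of all tested genes as a black line and 2-fold as dotted lines. The red bars range from 1.65 for chemokines to -0.40 for non-classical genes. Ccl5 and Ifit1, with 0 UMIs in shCtrl, have no point, and the medians are the same with both at their lower bounds.

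Antigen presentation was covered by a class I and a class II list. Of 21 MHC class I and peptide loading genes 4 were at least 2-fold higher and 0 lower, with 18 above 0 and a median of 0.65. The rise was not particular to the monocytes. The list median was 0.46 in C1q macrophages, 1.55 in neutrophils, 0.57 in T cells and 1.13 in epithelial barcodes. Among the cells not on the classical side 9 of 16 were at least 2-fold higher and 1 lower, with a median of 1.19. H2-D1, a class I heavy chain whose reads may be shared with related chains, was at 1648 and 3137 CPM, a ratio of 0.93 (0.74 to 1.12). Tap1, which carries peptides into the endoplasmic reticulum, was at 83.7 and 216 CPM, with 1.37 (0.55 to 2.27). Psmb9, a subunit of the immunoproteasome, was at 283 and 580 CPM, with 1.04 (0.58 to 1.51). Psmb9 was inside 2-fold at 0.97 when the median of all genes was set to 0 and at 0.94 with doublets removed. It was at 0.95 with mitochondrial, ribosomal and liver genes left out of the total, and at 0.997 without its leading cell. Calr (calreticulin), a chaperone of class I loading, was lower at 298 and 159 CPM, with -0.90 (-1.52 to -0.30).

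Of 8 MHC class II genes 0 were past 2-fold in either direction and 8 were above 0, with a median of 0.43. The list median was 0.21 in C1q macrophages, 0.79 in neutrophils, -0.21 in T cells and 2.82 in epithelial barcodes. In monocytes with keratins at 0 the median was 1.04, and among monocytes on the classical side 4 of 8 genes were at least 2-fold higher. Cd74, the invariant chain of class II, was at 6442 and 9005 CPM, a ratio of 0.48 (0.38 to 0.58), and Ctss, the protease that trims it, at 1512 and 2651 CPM, with 0.81 (0.61 to 1.01). Class II RNA was uneven among monocytes. At 1000 UMIs per cell the list ranged from 0 to 82 UMIs in shCtrl and from 0 to 127 in shSrsf10, with medians of 7 and 13. Cells with at least 20 class II UMIs made up 24.6% (15.1 to 36.5) and 38.7% (27.6 to 50.6). Across the cells of 1 library class II and classical UMIs ran in opposite directions, with Spearman rho of -0.32 over 69 shCtrl and -0.58 over 75 shSrsf10 cells, which share the fixed total of 1000 UMIs. The 4 cells of each library with UMIs of neither monocyte list had medians of 60 and 89.5 class II UMIs.

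Surface receptors came next. Of 17 pattern recognition and Fc receptor genes 4 were at least 2-fold higher and 0 lower, with a median of 0.49 that was 0.15 in cells with keratins at 0 and 0.19 on the classical side. The 4 were Cd300lf, an inhibitory receptor for lipids, at 26.2 and 148 CPM (1.16 to 4.20 on the log2 scale), and 3 receptors for the constant part of immunoglobulin G. Fcgr4 was at 41.9 and 159 CPM, a ratio of 1.93 (0.82 to 3.23). Fcgr2b, the inhibitory member, was at 220 and 550 CPM, with 1.32 (0.82 to 1.86), and Fcgr3 at 345 and 762 CPM, with 1.14 (0.73 to 1.57). Without the cells that held a dendritic cell marker Fcgr2b was at 0.94 and Fcgr3 at 0.92, inside 2-fold. In neutrophils Fcgr4 was at 32.8 and 450 CPM and Fcgr3 at 279 and 548 CPM. In C1q macrophages Fcgr4 was at 294 and 498 CPM and Fcgr3 at 389 and 585 CPM. The list median was 0.79 in neutrophils, 0.18 in C1q macrophages, -0.076 in T cells and 0.065 in epithelial barcodes. Fc receptor genes resemble one another and could share reads. Fcer1g, the signalling chain of the activating Fc receptors, was at 3307 and 4097 CPM, or 0.31 (0.17 to 0.45) on the log2 scale, and the adaptor Tyrobp at 5856 and 5936 CPM, with 0.020 (-0.092 to 0.13).

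Growth factor and cytokine receptors had 3 of 13 genes at least 2-fold higher and 0 lower, with a median of 0.58. Il1r2, a decoy receptor for interleukin 1, had 4 and 74 UMIs, of which 45.9% lay in 1 shSrsf10 cell, a ratio of 3.75 (2.33 to 5.66). It was at 1403 and 4418 CPM in neutrophils. Csf2ra, the receptor for granulocyte-macrophage colony stimulating factor, was at 141 and 284 CPM, with 1.01 (0.36 to 1.70), and was inside 2-fold under 9 of the other settings. Il10rb, a chain of the interleukin 10 receptor, had 3 and 20 UMIs, with 2.27 (0.52 to 4.67). Ccr1, a receptor for CC chemokines, was at 73.3 and 193 CPM, with 1.40 (0.53 to 2.37), and Ccr2, part of the rule, at 194 and 296 CPM. Chemokine receptors and adhesion molecules had 2 of 12 genes at least 2-fold higher (Ccr1 and Icam1) and 0 lower, with a median of 0.33 that was -0.29 on the classical side.

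Of the other genes with the highest ratios, Ly6a (Sca-1), an interferon-induced surface protein, was found in 4 shCtrl and 26 shSrsf10 cells at 41.9 and 205 CPM, a ratio of 2.29 (1.21 to 3.57). Its close copy Ly6i was at 57.6 and 243 CPM, and reads may be shared between them. In epithelial barcodes Ly6a was at 45.4 and 405 CPM. It was at 214 and 918 CPM in C1q macrophages, 692 and 1384 CPM in T cells and 8.21 and 98.1 CPM in neutrophils. F10, coagulation factor X, was found in 8 and 27 cells at 47.1 and 201 CPM, with 2.09 (1.06 to 3.30). F10 was also higher in shSrsf10 in C1q macrophages, at 9.14 and 47.6 CPM. It was at 73.9 and 98.1 CPM in neutrophils and at 1.60 and 1.30 CPM in epithelial barcodes. Gyg (glycogenin), which starts glycogen chains, was at 41.9 and 163 CPM, with 1.96 (0.86 to 3.26). Anxa1, an anti-inflammatory annexin, was at 147 and 406 CPM, with 1.47 (0.86 to 2.13), and at 0.98 without the cells that held a dendritic cell marker.

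**Figure D4:**
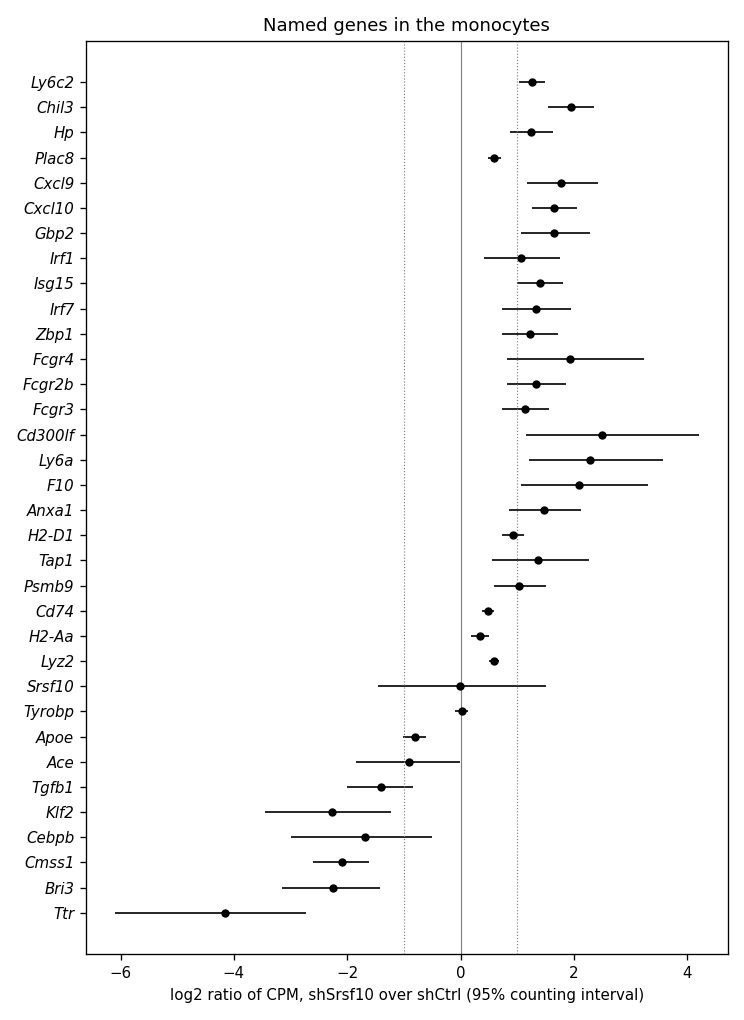
Log2 ratio of CPM (shSrsf10 over shCtrl) for selected genes in the monocytes, with exact 95% counting intervals as bars, no difference as a solid line and 2-fold as dotted lines. The classical, interferon-induced and Fc receptor genes drawn lie to the right, Srsf10 and Tyrobp at 0, and Klf2, Cmss1 and Ttr to the left. Interferon genes that were not higher, such as Stat2 and Ifi27l2a, are not drawn.

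Transcription factor genes of myeloid cells showed 0 of 19 at least 2-fold higher and 3 lower, with a median of -0.058, which lay above 0 under 2 alternatives. Klf2 and Cebpb were among those lower. Klf2, a factor that restrains inflammatory activation, was at 183 and 37.9 CPM, a ratio of -2.27 (-3.45 to -1.23). Cebpb, needed by non-classical monocytes, had 21 and 9 UMIs, with -1.69 (-3.00 to -0.50). Its ratio was also below 0 in T cells (-2.09), epithelial barcodes (-1.32), neutrophils (-0.79) and C1q macrophages (-0.79, -1.69 to 0.044). The Klf2 ratio was -1.33 in neutrophils and -0.95 in epithelial barcodes. In T cells and C1q macrophages Klf2 was at -0.21 and -0.016, with intervals that include 0. Spi1, the master factor of the lineage, was at 560 and 778 CPM, with 0.47 (0.13 to 0.82), and Irf8, which directs monocyte development, at 267 and 315 CPM, with an interval that includes 0 (-0.28 to 0.77).

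Of 8 macrophage maturation genes 0 were at least 2-fold higher and 2 lower, Pf4 among them, with a median of -0.39 that lay above 0 under 3 alternatives, at 0.088 with doublets removed. Apoe, a lipid carrier made by maturing macrophages, was at 2386 and 1366 CPM, a ratio of -0.81 (-1.01 to -0.60). It was also at 7426 and 4527 CPM in epithelial barcodes and 1149 and 809 CPM in neutrophils, and the part of free RNA in the monocyte value was not tested. Aif1, a cytoskeletal protein of macrophages, was at 366 and 512 CPM, with 0.48 (0.056 to 0.92). Tgfb1, a suppressive cytokine, was at 403 and 152 CPM, with -1.41 (-2.00 to -0.84). Il1b, an inflammatory cytokine, was at 952 and 1597 CPM, with 0.75 (0.49 to 1.00). Arg1, which breaks down arginine, had 11 and 42 UMIs in 2 cells of each library, and its log2 ratio of 1.47 was -2.92 without 1 cell and -0.59 with Lyz2 at 5 or more. Of 13 suppressive genes 3 were at least 2-fold higher (Arg1, Chil3 and Anxa1) and 2 lower (Tgfb1 and Vegfa), with a median of -0.17 that lay above 0 under 6 alternatives. Inflammatory cytokines had 0 of 5 and checkpoint and costimulation genes 0 of 11 past 2-fold in either direction, with medians of 0.12 and 0.47.

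Several of the genes with the lowest ratios were also lower in the other classes. Cmss1, at 764 and 178 CPM in monocytes, was at 558 and 277 CPM in C1q macrophages, 1034 and 462 CPM in neutrophils and 191 and 99.1 CPM in epithelial barcodes. Bri3 was at 288 and 60.7 CPM in monocytes and 269 and 56.9 CPM in epithelial barcodes, and Cdk8, a kinase of the Mediator complex, at 440 and 106 CPM in monocytes and 154 and 70.0 CPM there. The hepatocyte genes Ttr, Alb and Afp were also among the 10 lowest. Ttr was at 272 and 15.2 CPM in monocytes, 177 and 43.1 CPM in T cells and 2617 and 838 CPM in epithelial barcodes. The part of free RNA in these values was not tested.

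Srsf10 could not be judged in the monocytes. It had 8 UMIs in shCtrl and 11 in shSrsf10, 41.9 and 41.7 CPM, a log2 ratio of -0.0049 (-1.45 to 1.51), an interval that includes both a 2-fold loss and a 2-fold gain. In epithelial barcodes it was at 45.9 and 20.1 CPM, a ratio of -1.19 (-1.26 to -1.12). Of 11 other splicing factors and Srsf10 relatives tested 0 were at least 2-fold higher and 1 lower, with a median of -0.073.

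Glycolysis and hypoxia genes had 3 of 16 at least 2-fold higher and 1 lower, with a median of 0.56. Aldoa (aldolase) was at 429 and 948 CPM, a ratio of 1.14 (0.78 to 1.52) that was 0.77 without the cells that held a dendritic cell marker. Pgam1 (phosphoglycerate mutase) was at 178 and 421 CPM, with 1.24 (0.68 to 1.84), and Vegfa, a vessel growth factor, had 15 and 7 UMIs. Genes of the lysosome and of phagocytosis had 0 of 22 past 2-fold in either direction, with a median of 0.28. Respiratory chain genes had 1 of 25 higher (Sdhb, a succinate dehydrogenase subunit) and 0 lower, with a median of -0.088. Cell cycle genes had 0 of 8 higher and 4 lower, with a median of -0.90, but this median lay above 0 in 3 of the alternatives given below, so no direction is given. The median cell of both libraries held 2 cell cycle UMIs per 1000. Immediate early and heat shock genes, which tissue digestion can induce, had 0 of 17 higher and 2 lower (Jund and Hspa1a). Their median was -0.19 and also lay above 0 under 3 alternatives. Both genes were lower in C1q macrophages, neutrophils, T cells and epithelial barcodes as well. In that order the ratios were -1.01, -0.91, -1.39 and -0.89 for Jund and -3.17, -3.08, -0.97 and -1.35 for Hspa1a. Lipid and iron handling genes had 1 of 8 higher (Fabp4) and 0 lower, with a median of -0.056, above 0 under 2 alternatives.

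The interferon and chemokine medians lay above the median of all genes on both sides of the classical split. Among monocytes with more classical than non-classical UMIs, 29 in shCtrl and 49 in shSrsf10, the medians were 1.97 for interferon gamma, 0.74 for type I interferon and 2.08 for chemokine genes, against 0.097 for all genes tested there. Among the other monocytes, 40 and 26 cells, they were 1.18, 1.06 and 1.58, against 0.082. MHC class II medians were 0.91 and 0.92 in the 2 subsets, above the 0.43 of all monocytes. Cxcl9 was at 15.3 and 268 CPM in the classical subset, the first resting on 1 UMI, and at 222 and 975 CPM in the other.

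Set beside other cells of the same libraries, interferon gamma genes had medians of 0.75 in C1q macrophages, 1.90 in neutrophils, 0.63 in T cells and 2.43 in epithelial barcodes, against 1.37 in monocytes. Type I interferon genes had medians of 0.80, 1.99, 1.33 and 1.01, against 1.12. Chemokine genes had medians of -0.070, 0.22, -0.14 and 0.64, against 1.65. The lists tested in each class differ in members, since each gene needed 20 UMIs there, and no test of a difference between classes was possible with 1 library a group.

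**Figure D5:**
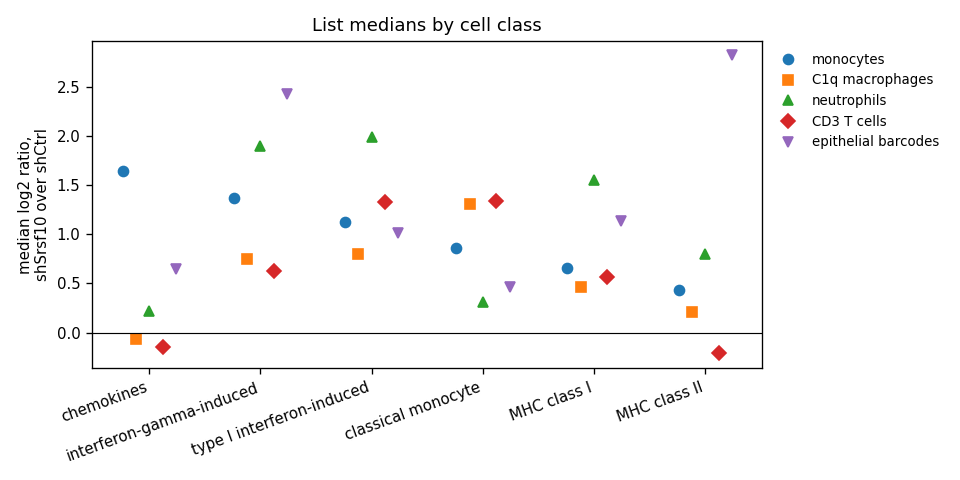
Median log2 ratio of CPM (shSrsf10 over shCtrl) on the y axis for 6 gene lists on the x axis, with 1 symbol for each cell class. The chemokine median is 1.65 in monocytes and between -0.14 and 0.64 in the other classes, and the interferon medians are above 0 in all 5. Mean chemokine UMIs per cell, not drawn here, were higher in shSrsf10 in every class.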

How the data were processed

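Each deposited matrix gives raw UMI counts of 32285 features, without normalization, as the file headers and whole-number values show. Cell Ranger 6.1.0 and mm10 are the tool and genome build, per the submitters' processing notes. Per the labels, the kit is given both as a 5′ and as a 3′ version 3 kit, and a slow spin that settles hepatocytes is named beside a sort, so the kit, the gate and the fraction loaded are unsettled. Barcodes have 17 bases, and no barcode holds under 500 UMIs. For 40 symbols a further gene ID was set aside.

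The members and gene lists were chosen with earlier results of these data known. UMIs were summed over the monocytes of a library and given as CPM. A gene was compared with at least 20 UMIs over both libraries and counted at a 2-fold ratio. CPM have exact Poisson intervals, ratios exact conditional binomial intervals and shares exact Clopper-Pearson intervals, at 95%, for counting error only. No barcodes were removed as doublets in the main values. Classes for comparison were C1q macrophages (the same rule without the need for Lyz2, with at least 3 C1q UMIs and at most 1 Kupffer cell UMI), neutrophils (S100a8 and S100a9 at 1% or more), T cells (at least 2 Cd3 UMIs) and epithelial barcodes (above the keratin limit).

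Named genes were the 10 highest and 10 lowest ratios among genes with at least 50 UMIs and 100 CPM in 1 library (mitochondrial, ribosomal, haemoglobin, antigen receptor, sex-linked and predicted genes and those of the choosing rule left out), the 4 largest ratios of each list, the markers and Srsf10. Some of these are not reported here, and further list members were named after their values were seen. Analyses used Python 3.11.15, numpy 2.4.6, scipy 1.17.1 and scanpy 1.11.5 (Scrublet). The intervals were tested on simulated data. Promoter windows came from RefSeq (GRCm38.p6), and mm10 is the same assembly.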

Additional observations from a re-analysis of the deposited data

How the results depend on the processing

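Of 386 values of shares, counts and list medians under other settings, 354 stayed within the counting interval or, for counts, within 1.5 times, and 32 did not. None of the medians past 2-fold changed sign, but 22 of 322 list medians did, all from values inside 2-fold. These were 6 for suppressive genes, 3 each for macrophage maturation, immediate early and cell cycle genes, 2 each for transcription factors and lipid and iron handling, and 1 each for chemokine receptors (-0.29), non-classical genes (0.20, on the side with fewer classical UMIs, a split that uses this list) and splicing factors (0.12). With Krt8 and Krt18 at 0 the monocytes were 0.430% and 0.748% of kept barcodes and 1.91% and 1.85% of barcodes within the keratin limit, 90 genes were lower, and medians were 0.15 for pattern and Fc receptors, 1.04 for MHC class II, 0.90 for interferon signalling and 0.25 for the cell cycle. With at least 1000 UMIs and 500 genes the monocytes were 5.19% and 3.22% of barcodes within the keratin limit, and with the rule applied at 1000 UMIs 0.602% of kept shCtrl barcodes. With Lyz2 at 5 or more the MHC class II median was 0.59, and as a mean of CPM per cell 0.69. The chemokine median was 1.00 with C1q at 0 and 1.24 without the dendritic-type cells, where immediate early genes had 0.10 and the cell cycle 0.14. With at least 50 UMIs a gene, 71 were higher and 41 lower, and immediate early genes had 0.33. At 1.5-fold, 555 were higher and 418 lower. At 2000 UMIs 82.9% of shSrsf10 cells were on the classical side. Subsets by side, and values without 1 cell, were added after the data were seen. On the classical side medians were 0.19 for pattern and Fc receptors, 2.08 for chemokines, 0.91 for MHC class II, 0.20 for immediate early genes and 0.038 for the cell cycle, and on the other side 0.92 for MHC class II, 1.19 for MHC class I and 1.09 for glycolysis. Of single genes, 16 of 1325 values turned. Sparc was at -3.55, Cxcl1 at -1.55 and Fabp4 at -2.14 with C1q at 0, and Sparc and Fabp4 both at -2.58 with keratins at 0, where Tubb5 was at 0.0012 and Stmn1 at 0.91. Without the cell with Col1a1, which is also the cell with most of their UMIs, Sparc was at -3.42, Cxcl1 at -1.42 and Fabp4 at -2.01. Without its leading cell Pf4 was at 2.26 and Arg1 at -2.92, and with Lyz2 at 5 or more Arg1 was at -0.59. The cause was not tested where it is not the cell left out. No paired analysis was possible because each group has 1 library. Counts under about 20 UMIs leave ratios uncertain by several fold, and 74 and 76 cells leave shares uncertain by over 10 points.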
